A study of Mus musculus with 2 samples.

Results

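The genes described here make cholesterol and fatty acids, or control how much of them a cell makes and keeps. They are 33 mouse genes in 5 roles, namely the mevalonate arm, the steps after squalene, the SREBP factors and their regulators in the endoplasmic reticulum, sterol transport with the LXR receptors and Mylip, and fatty acid synthesis. Members were found by the gene name that the array design gives each spot, which took 48 probes, each printed at 1 spot, of 39429 probes at 43020 spots. They are 33 of 31829 gene names on the array. Each of the 33 genes had at least 1 probe.

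Cholesterol is built from acetyl-CoA through mevalonate, farnesyl diphosphate and squalene. When membranes hold little sterol, SCAP carries the SREBP factors out of the endoplasmic reticulum, and their cleaved forms enter the nucleus and switch on the enzymes of both pathways. When sterol is plentiful, INSIG proteins hold SCAP back, and oxysterols activate the LXR receptors, which switch on export pumps such as ABCA1.

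The study searched for the cell surface receptor of Ecrg4, a secreted protein. RNA of BaF/3 (#BEB1) cells and of parental Ba/F3 cells was hybridised to 1 Agilent 1-colour whole mouse genome array each, both with Cy3. Ba/F3 is a mouse pro-B cell line that depends on interleukin-3, and both lines were kept with it and with foetal calf serum in the medium. BaF/3 (#BEB1) is a single clone, sorted for Ecrg4 binding after Ba/F3 cells had been infected with a retroviral cDNA library of CG4, a rat oligodendrocyte precursor line. Differences of the clone and of its retroviral insert cannot be told apart, since BaF/3 (#BEB1) is a single clone. Those of the culture cannot be told apart from either, since each cell line is 1 array.

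The labels of the arrays conflict. The log2 value table and the scanner output were set against each other over 39429 probes. The table's BaF/3 (#BEB1) column followed the scanner output deposited for parental Ba/F3 (r = 0.999996) more closely than that deposited for BaF/3 (#BEB1) (r = 0.982286). The table's parental column followed the scanner output deposited for BaF/3 (#BEB1) (r = 0.999998). The array that the table gives to BaF/3 (#BEB1) is called array A here, and the other is array B. Each difference is log2 of array A over array B. By the table's labels it is BaF/3 (#BEB1) over parental cells, and by the labels of the scanner files it is parental cells over BaF/3 (#BEB1). Olr1, the receptor gene that the study cloned from BaF/3 (#BEB1) cells, had a signal of 12962 on array A and 289 on array B, a difference of 5.01. The study describes Olr1 mRNA as more abundant in BaF/3 (#BEB1) than in parental cells, which is the direction given by the table's labels. The files alone do not settle which set of labels is right, so the members' values are given by array.

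On array A 49.4% of the probes were well above background, and on array B 49.9%, with 0 saturated spots. A gene was called measured where both arrays read at least 1 of its probes well above background. Its value was the mean over such probes, which gave 14832 measured genes with a median difference of −0.018. Errors given as ± are those of the scanner software for both arrays combined, on the log2 scale. They are set mostly by a fixed 10% of the signal, so they cover the reading of the array and not the spread between cultures, which 1 array per cell line cannot give. The median difference was −0.20 among 2299 probes with a mean signal under 100 and 0.071 among 10357 probes over 1000, so dim probes leaned towards array B. Of the 14 Ba/F3 lineage and receptor markers with a probe, 6 were measured. Past 2-fold towards array B lay 4 of the 6, against 7.31% of all measured genes. These were the B-lineage genes Cd79b (−2.30 ± 0.21) and Vpreb1 (−1.39 ± 0.27) and the IL-3 receptor subunit genes Csf2rb (−1.86 ± 0.20) and Csf2rb2 (−1.60 ± 0.20). The remaining measured markers, Ptprc (0.75 ± 0.20) and the IL-3 receptor subunit gene Il3ra (0.40 ± 0.20), were higher on array A. Others of that list, such as Pax5, Ebf1, Rag1, Il7r and Cd79a, stood well above background on neither array. Of the macrophage markers 4 of 8 were measured (median −0.21), with 2 higher on each array. They ran from Cd68 (−1.26 ± 0.24) to Emr1 (0.90 ± 0.20). Of the oligodendrocyte precursor markers 2 of 6 were measured (median −0.15). The part of any of these in the members' differences was not tested.

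The sterol and fatty acid genes leaned towards array B. Of the 33 genes 32 were measured, and 6 of them were higher on array A, against 48.6% of all measured genes, and 26 were higher on array B, against 51.4%. When each array was scaled to its median, 14 members leaned towards array A and 18 towards array B, and 31.1% of all measured genes leaned towards array B. With 75th percentile scaling the members' median was −0.38. No member was at least 2-fold higher on array A, against 3.84% of all measured genes, and 4 members were 2-fold or more higher on array B, against 7.31% of all measured genes. At 1.5-fold the counts were 0 on array A, against 12.5% of all measured genes, and 14 on array B, against 17.6%. With scaling to the median only Mvk, Mvd, Dhcr7, Insig1 and Abca1 were past 1.5-fold towards array B. Nr1h3 (0.87) then passed it towards array A. The shares of all measured genes past 1.5-fold with that scaling are not given. The difference exceeded 2 scanner errors towards array A in 0 members, against 19.5% of all measured genes, and towards array B in 15, against 23.3%. With scaling to the median these counts were 4 members towards array A (38.5% of all measured genes) and 9 towards array B (12.7%). Those 4 were Fdft1, Sc5d, Insig2 and Nr1h3. Acat2, Tm7sf2, Stard4, Nr1h2, Mylip and Acly were past 2 errors towards array B with 75th percentile scaling but not with scaling to the median. Scaling to the median added 0.29 to every difference and moved the median of all measured genes to 0.27, and the members' median minus that of all genes was −0.36 under both scalings. With 1 array per cell line none of these counts has a test.

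**Figure D1:**
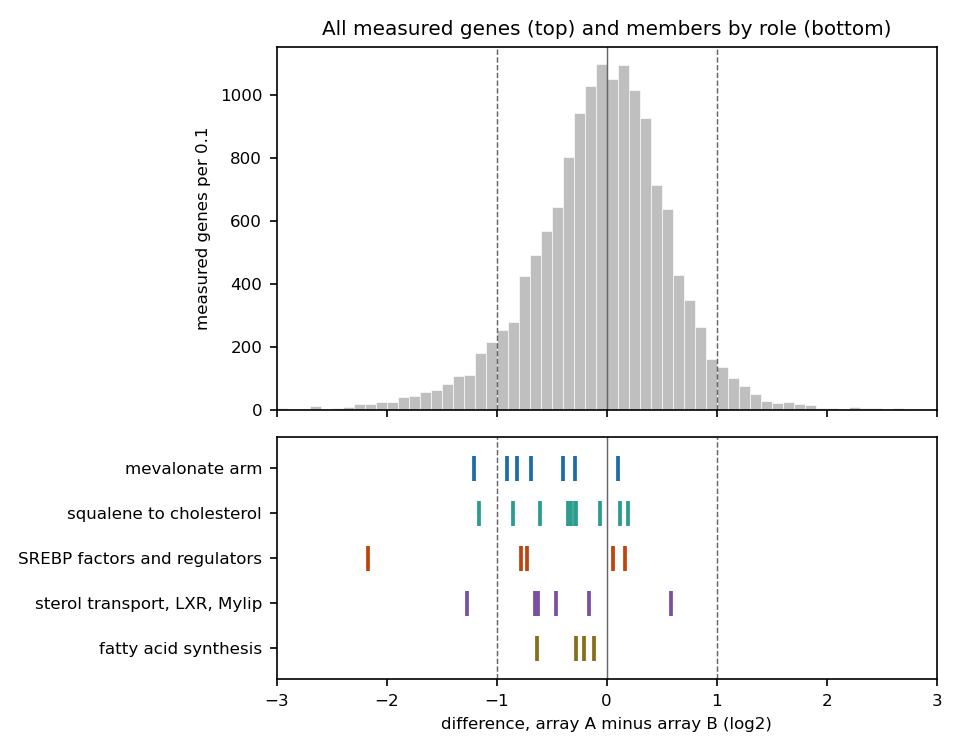
Differences between the arrays, log2 of array A over array B, for all 14832 measured genes (top, genes per 0.1) and for the 32 measured sterol and fatty acid genes by role (bottom, 1 tick per gene). Dashed lines mark 2-fold, and genes beyond 3 in either direction are not drawn. The members run between −2.17 and 0.58, with 4 ticks beyond 2-fold on the array B side and none on the array A side.

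The 4 members beyond 2-fold belong to 4 roles. Insig1 encodes the sterol sensor that retains SCAP, Abca1 the pump that exports cholesterol to apolipoproteins, Mvk mevalonate kinase, and Dhcr7 the reductase that ends 1 branch of cholesterol synthesis. The bases before their annotated start are shown beside those of Hmgcs1, the only member whose promoter entry held the sterol regulatory element sought. The sequences are from the RefSeq promoter table of GRCm38.p6, 150 bases each and read 5′ to 3′ on the gene's strand. Capitals mark matches on either strand to the sterol regulatory element TCACNCCAC, the NF-Y box CCAAT, the GC box GGGCGG bound by Sp1, and the E-box CACGTG. Insig1 lies at chr5:28071262-28071411 (plus strand), Mvk at chr5:114444119-114444268 (plus), Dhcr7 at chr7:143830064-143830213 (plus, the start with most matches of 3 annotated), Abca1 at chr4:53159896-53160045 (minus) and Hmgcs1 at chr13:119690201-119690350 (plus).
Insig1: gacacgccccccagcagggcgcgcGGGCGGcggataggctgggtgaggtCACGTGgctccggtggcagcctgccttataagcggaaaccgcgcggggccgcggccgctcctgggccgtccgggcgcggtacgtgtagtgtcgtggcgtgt
Mvk: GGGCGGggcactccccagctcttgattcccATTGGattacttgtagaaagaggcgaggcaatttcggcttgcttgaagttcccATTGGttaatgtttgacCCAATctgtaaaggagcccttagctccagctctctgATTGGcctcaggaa
Dhcr7: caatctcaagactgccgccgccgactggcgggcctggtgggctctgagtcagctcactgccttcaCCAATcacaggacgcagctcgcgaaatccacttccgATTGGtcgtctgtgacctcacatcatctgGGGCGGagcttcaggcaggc
Abca1: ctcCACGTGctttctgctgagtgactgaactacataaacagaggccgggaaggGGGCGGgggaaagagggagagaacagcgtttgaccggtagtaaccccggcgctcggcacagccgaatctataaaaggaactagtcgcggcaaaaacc
Hmgcs1: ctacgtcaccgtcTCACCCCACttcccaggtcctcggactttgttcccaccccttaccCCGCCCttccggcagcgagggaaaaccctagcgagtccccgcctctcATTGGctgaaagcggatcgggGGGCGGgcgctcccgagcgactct

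In these stretches Mvk held 4 NF-Y boxes and Dhcr7 held 2, while Insig1 and Abca1 each held 1 E-box. Each of these genes held 1 GC box, and Hmgcs1 held 2. Over the whole entries, 250 bases before to 50 after each start, 26 of the 33 members had an entry. The NF-Y box was found in 20 of these 26 (76.9%), against 41.1% of 27025 genes in the table and 43.0% of the 7949 of them measured here. The GC box was found in 21 (80.8%), against 38.2% of the table and 67.2% of the measured genes. The E-box was found in 6 (23.1%), against 8.09% and 11.9%, and TCACNCCAC in 1 (3.85%), against 1.44% and 1.42%. The median difference was −0.53 in the 20 members with an NF-Y box and −0.38 in the 6 without, and −0.63 in the 21 with a GC box and −0.21 in the 5 without. It was −0.61 in the 6 members with an E-box and −0.53 in the 20 without. Hmgcs1, the 1 member with TCACNCCAC, differed by 0.10, against a median of −0.61 in the 25 without. A match describes the letters only, and these were not tested against the differences. Sqle, Fdps, Fdft1, Stard4, Abcg1, Scd1 and Scd2 had no entry in the table.

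In the mevalonate arm 6 of the 7 genes were higher on array B, against 51.4% of all measured genes. With scaling to the median 5 were, against 31.1%. The median of the 7 was −0.69 (−0.40 with scaling to the median). Past 1.5-fold towards array B lay 4 of the 7, against 17.6% of all measured genes. With scaling to the median only Mvk (−0.91) and Mvd (−0.61) in this arm stayed past it. Mvk, which phosphorylates mevalonate, was read by a pair of probes at chr5:114910540-114910599 and chr5:114910299-114910358 (mm9, plus strand). The first gave 2624 ± 262 signal units on array A and 4623 ± 462 on array B. Its neighbour gave 685 ± 69.0 on array A and 1064 ± 107 on array B. These signals are before scaling by the 75th percentile, which was 1506 for array A and 1080 for array B. After scaling, the probes differed by −1.30 and −1.11, and Mvk by −1.20 ± 0.20, or 2.31-fold higher on array B. Both probes of Mvk thus gave array B as the higher one, within 0.18 of each other.

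The enzymes after Mvk also read higher on array B. Mvd, the decarboxylase that makes isopentenyl diphosphate, had a normalised signal of −0.19 on array A and 0.72 on array B (log2 of the signal over the 75th percentile), a difference of −0.90 ± 0.20. Idi1, the isomerase of that product, had 1.93 on array A and 2.75 on array B, a difference of −0.82 ± 0.20. Array B was the higher one for both, beyond 2 errors and short of 2-fold. Fdps, which makes farnesyl diphosphate, had 3.37 on array A and 3.77 on array B (−0.40 ± 0.20). Pmvk, the kinase between Mvk and Mvd, had 1.02 on array A and 1.30 on array B (−0.29 ± 0.20). Its 2 probes lay 0.0085 apart. These last 2 stayed within 2 errors.

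The first enzymes of the arm differed from each other. Acat2, the cytosolic thiolase that joins acetyl-CoA units, was dim, with 101 ± 11.8 signal units on array A and 117 ± 12.7 on array B, a difference of −0.69 ± 0.23. Hmgcs1, which makes HMG-CoA, gave 11418 ± 1142 on array A and 7622 ± 762 on array B, a difference of 0.10 ± 0.20. Hmgcs1 was the only mevalonate gene higher on array A, by less than 1 error, and its probe is placed by the design on an unassigned piece of chromosome 13 in mm9.

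**Figure D2:**
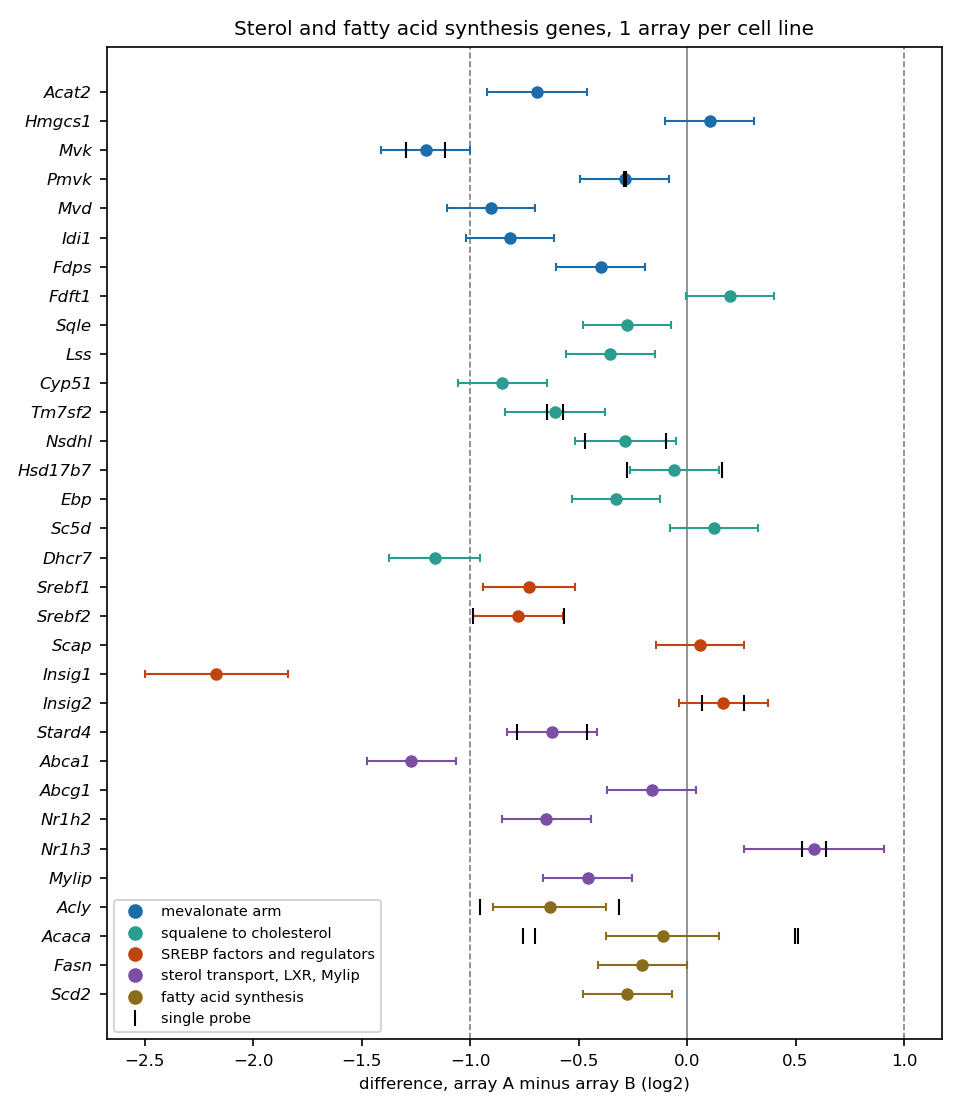
Difference of each measured sterol and fatty acid gene, array A minus array B (log2), with circles for the gene's mean over its measured probes, bars for the scanner error and black ticks for single probes where there are several. Insig1 lies at −2.17, Mvk, Dhcr7 and Abca1 lie beyond the dashed 2-fold line on the array B side, and the 4 Acaca probes fall on both sides of 0.

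Of the 10 enzymes that turn farnesyl diphosphate into cholesterol, 8 were higher on array B, against 51.4% of all measured genes. With scaling to the median 5 were, against 31.1%. The median of the 10 was −0.31 (−0.014 with scaling to the median). Dhcr7 gave 257 ± 26.8 signal units on array A and 413 ± 41.7 on array B at chr7:151033874-151033933 (mm9, plus strand). Its difference after scaling was −1.16 ± 0.21, or 2.24-fold higher on array B. Cyp51, the lanosterol demethylase, gave 285 ± 29.1 on array A and 369 ± 37.2 on array B, a difference of −0.85 ± 0.21. Array B was the higher one for both, and each rests on 1 probe, that of Cyp51 carrying an outlier mark of the scanner software.

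Tm7sf2, a sterol reductase that acts after Cyp51, differed by −0.61 ± 0.23, and its probes gave −0.65 and −0.57. It was the third of these enzymes to pass 1.5-fold towards array B, as 17.6% of all measured genes did. With scaling to the median Tm7sf2 differed by −0.32 and Cyp51 by −0.56. Only Dhcr7 (−0.87) among these enzymes then passed 1.5-fold. Lss, the cyclase that makes lanosterol, had −1.78 on array A and −1.43 on array B, a difference of −0.35 ± 0.21. Ebp, the sterol isomerase, differed by −0.33 ± 0.20, and Sqle, squalene epoxidase, by −0.28 ± 0.20. Lss, Ebp and Sqle were higher on array B by less than 2 errors each.

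The other 4 enzymes differed little. Nsdhl, a dehydrogenase that helps to remove methyl groups from sterols, differed by −0.28 ± 0.23, with probes at −0.097 and −0.47. Hsd17b7, the reductase of the same reaction series, differed by −0.058 ± 0.21, and its probes gave opposite directions, at 0.16 and −0.28. Fdft1, squalene synthase, differed by 0.20 ± 0.20 and Sc5d, a sterol desaturase, by 0.12 ± 0.20, both higher on array A by no more than 1 error. With scaling to the median they differed by 0.49 and 0.41, past 2 errors. Neither array read the second Fdft1 probe well above background. Over both arms 14 of 17 cholesterol enzymes were higher on array B, against 51.4% of all measured genes, with a median of −0.35. With scaling to the median these were 5 of 7 in the mevalonate arm and 5 of 10 after it, against 31.1%.

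**Figure D3:**
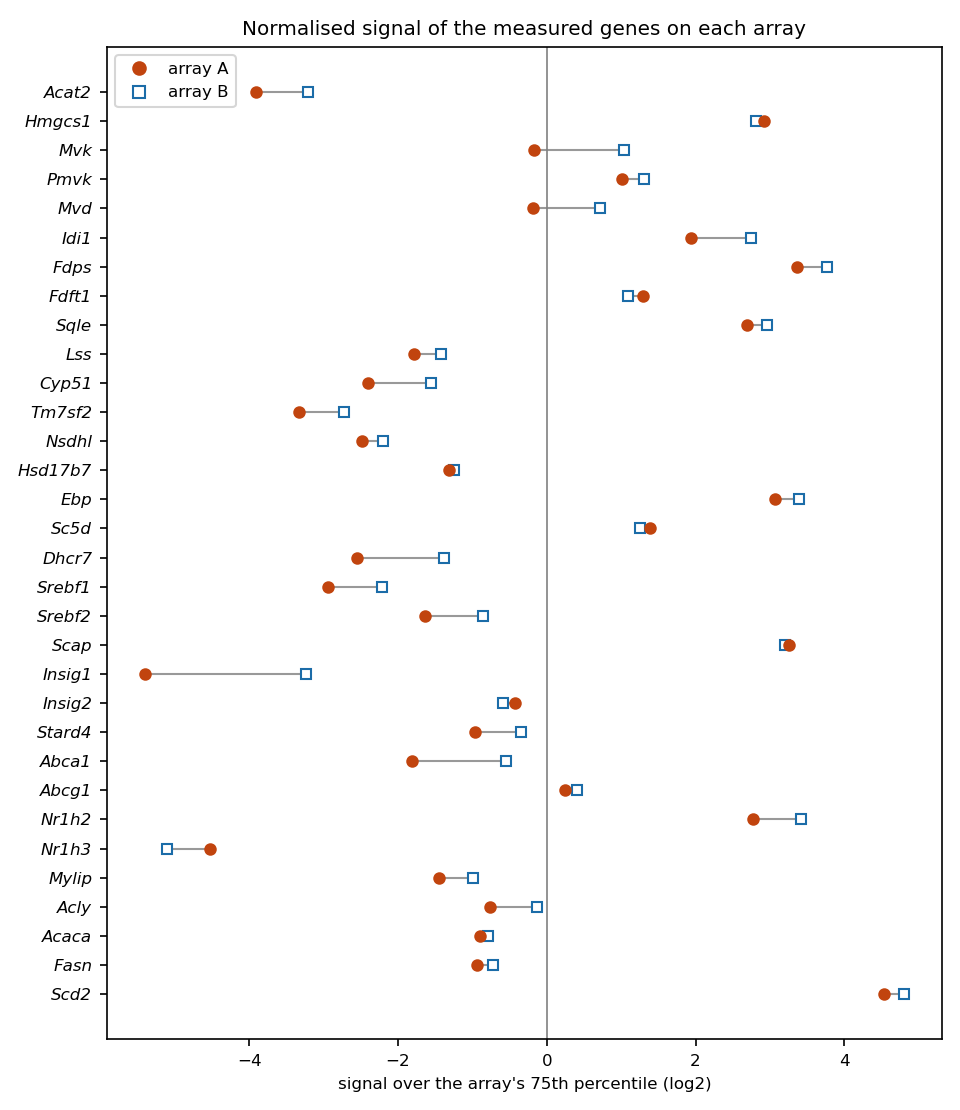
Normalised signal (log2 of the signal over the array's 75th percentile) of each measured member on array A (filled circles) and array B (open squares), joined by a line. Only the distance between the 2 marks of a gene can be read, since levels of different probes are not comparable. The Insig1 marks lie at −5.40 for array A and −3.24 for array B.

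Among the SREBP factors and their regulators 3 of 5 genes were higher on array B under both scalings, with a median of −0.73. Of all measured genes 51.4% were higher there, or 31.1% with scaling to the median. Insig1, itself an SREBP target, gave 35.5 ± 7.14 signal units on array A and 115 ± 12.5 on array B at chr5:28404246-28404305 (mm9, plus strand). Its difference of −2.17 ± 0.33, or 4.50-fold, was the largest among the members. The array A signal was near the lowest signal of a probe well above background there, 27.6, and a single probe read the gene. With another background correction (normexp) the difference was −1.24. Insig2, the related gene that is not under the same sterol control, differed by 0.17 ± 0.20, and its probes gave 0.26 and 0.068. Insig1 was thus higher on array B while Insig2 differed by less than 1 error. With scaling to the median Insig2 differed by 0.46, past 2 errors towards array A.

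Both SREBP genes were higher on array B. Srebf2, whose product drives chiefly the cholesterol genes, gave 1297 ± 130 signal units on array A and 1378 ± 138 on array B at its first probe, and 181 ± 19.1 on array A and 258 ± 26.3 on array B at the other. The scaled differences were −0.57 and −0.99, with a mean of −0.78 ± 0.21. Srebf1, whose product drives chiefly fatty acid genes, gave 196 ± 20.7 on array A and 233 ± 23.9 on array B, a difference of −0.73 ± 0.21. Srebf1 rests on 1 probe, and its transcripts were not separated. Scap, which escorts both factors, had 3.26 on array A and 3.20 on array B, a difference of 0.059 ± 0.20.

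In the transport group 5 of 6 genes were higher on array B, against 51.4% of all measured genes, and the median was −0.54. With scaling to the median 4 were, against 31.1%. Abca1 gave 427 ± 43.1 signal units on array A and 739 ± 74.1 on array B at chr4:53043944-53044003 (mm9, minus strand). Its difference was −1.27 ± 0.21, or 2.41-fold higher on array B. Abcg1, the pump that passes cholesterol on to lipoprotein particles and is also an LXR target, had 0.25 on array A and 0.41 on array B, a difference of −0.16 ± 0.20. Thus Abca1 passed 2-fold and Abcg1 stayed within 1 error.

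The LXR receptor genes differed in opposite directions, but under neither of the 2 scalings did both pass 2 errors. Nr1h2, the gene of the widely expressed LXRβ, had 2.77 on array A and 3.42 on array B, a difference of −0.65 ± 0.20. With scaling to the median Nr1h2 differed by −0.36, within 2 errors. Nr1h3, the gene of LXRα, was dim, with 87.2 ± 10.2 and 49.1 ± 7.24 signal units at its probes on array A, and 40.2 ± 6.06 and 24.4 ± 5.13 on array B. Its difference of 0.58 ± 0.32 was the highest of all members, just under 1.5-fold, and it was 0.14 with the normexp correction. It was 0.87 with scaling to the median, past 2 errors, and 0.86 with quantile normalisation. Stard4, which carries sterol between membranes inside the cell, differed by −0.62 ± 0.21, with probes at −0.78 and −0.46. Mylip, the ubiquitin ligase that marks the LDL receptor for degradation, differed by −0.46 ± 0.20 at its 1 measured probe. Neither array read a second Mylip probe well above background, and with the filter on dim probes off the gene's difference was −1.06.

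By the mean over probes all 4 measured fatty acid synthesis genes were higher on array B, but 1 of 4 (Acly) with scaling to the median. The shares of all measured genes were 51.4% and 31.1%. The brightest Acaca probe gave 0.51, higher on array A. The median of the 4 genes was −0.24 (0.051 with scaling to the median). Fasn, fatty acid synthase, gave 789 ± 79.1 signal units on array A and 653 ± 65.5 on array B, a scaled difference of −0.21 ± 0.20. Scd2, a stearoyl-CoA desaturase, had 4.53 on array A and 4.80 on array B, a difference of −0.27 ± 0.20. Scd1, the related desaturase most studied in liver and fat, stood well above background on neither array (7.77 ± 7.74 on array A and 6.19 ± 6.17 on array B). Neither Fasn nor Scd2 passed 2 errors.

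Acly and Acaca, which feed carbon into fatty acids, were read differently by bright and dim probes. Acly, the lyase that makes cytosolic acetyl-CoA, gave 15135 ± 1513 on array A and 13477 ± 1348 on array B at a bright probe (−0.31 after scaling). At a dim probe it gave 51.6 ± 9.16 on array A and 71.7 ± 9.35 on array B (−0.95). Its mean of −0.63 ± 0.26 passed 1.5-fold, and that of the bright probe did not. Acaca, acetyl-CoA carboxylase, averaged −0.11 ± 0.26 over 4 probes that gave opposite directions.

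The Acaca probes lie along chromosome 11 (mm9, plus strand). The bright pair at chr11:84215093-84215152 and chr11:84215094-84215153 overlaps almost wholly, and gave 15089 ± 1509 and 14951 ± 1495 on array A, and 7592 ± 759 and 7610 ± 761 on array B. These differed by 0.51 and 0.50, higher on array A. The dim probes at chr11:84009021-84009080 and chr11:84211638-84211697 gave −0.76 and −0.70, higher on array B, with signals under 100 on both arrays. With the brightest probe alone Acaca differed by 0.51, so its direction is not settled.

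With 75th percentile scaling the lean towards array B was present in dim and bright member probes. Of 8 member probes with a mean signal under 100, 6 were higher on array B (median −0.64), against a median of −0.20 over all 2299 such probes. Of 16 between 100 and 1000, 14 were higher on array B (median −0.55), against a median of −0.11 over all 5904 probes in that range. Of 21 over 1000, 14 were higher on array B (median −0.28), against 0.071 over all probes in that range. Of the 11 members with several measured probes, Hsd17b7 and Acaca were the 2 whose probes gave opposite directions. Another 20 members, the unmeasured Scd1 among them, have a single probe on the array. Fdft1 and Mylip have a second probe but rest on 1 measured probe each.

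**Figure D4:**
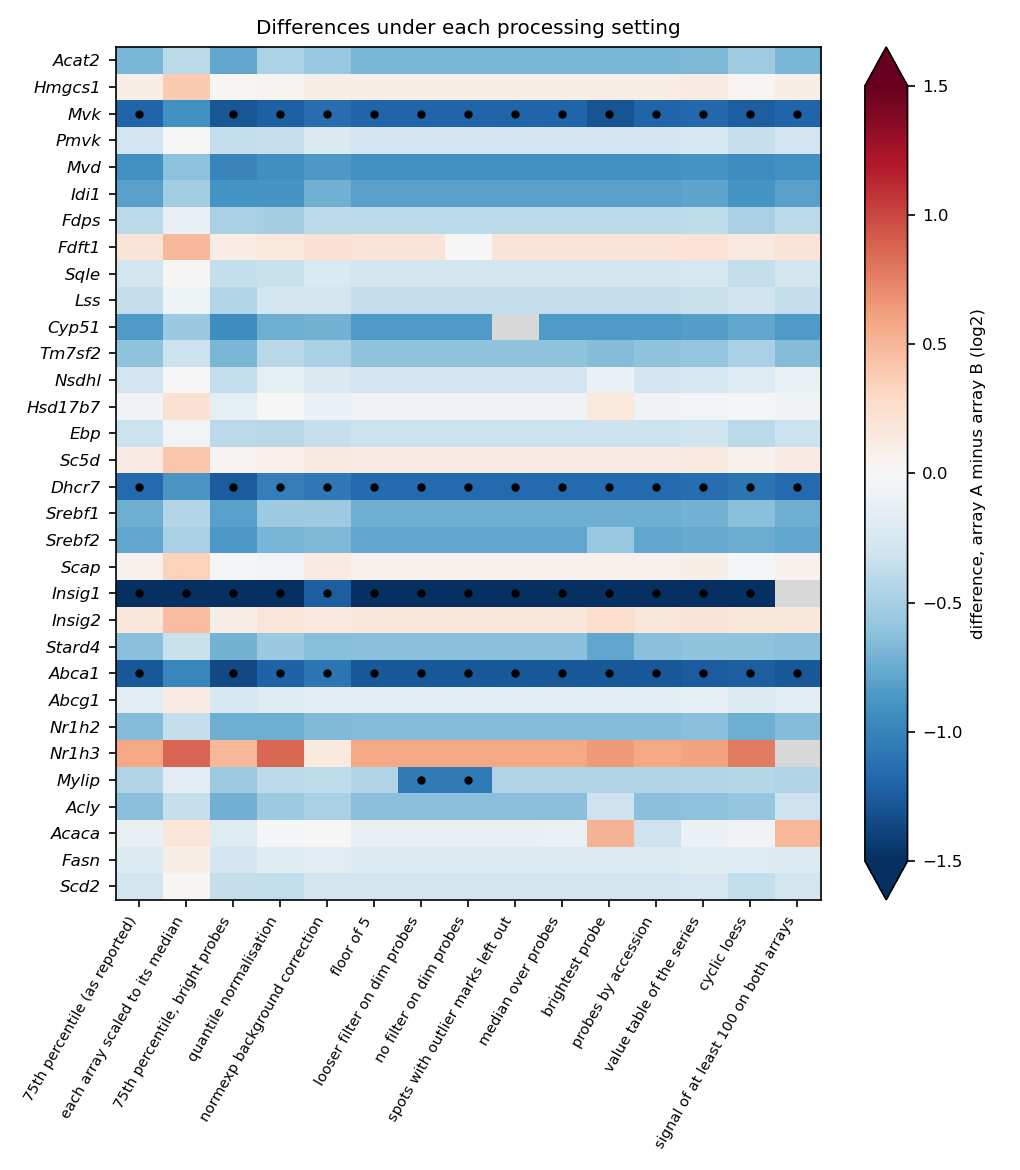
Difference of each measured member (rows), log2 of array A over array B, under the reported processing (left column) and 14 other settings, with dots at 2-fold or more and grey where the gene was not measured. The colour scale ends at 1.5 in each direction. Insig1 keeps its dot in the 14 columns that measured it, and Mvk, Dhcr7 and Abca1 lose theirs only with scaling to the median.

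Other genes of the same pathways were split between the arrays. Of 50 such genes with a probe 43 were measured, with a median of 0.035. Of these 23 were higher on array A, against 48.6% of all measured genes, and 20 on array B, against 51.4%. Past 2-fold lay 1 gene towards array A, against 3.84% of all measured genes, and 5 towards array B, against 7.31%.

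Of 16 measured genes of fatty acid and glyceride synthesis 2 passed 2-fold. Both were higher on array B, against 7.31% of all measured genes. Acss2, an SREBP target that makes acetyl-CoA from acetate, differed by −1.75 ± 0.21, with probes at −1.78 and −1.71. Fads2, a desaturase of polyunsaturated fatty acids, differed by −1.47 ± 0.21, with probes at −1.49 and −1.45. These lay well beyond Fasn, Scd2 and the other fatty acid members. The median of the 16 was −0.075.

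Of 10 measured genes of sterol uptake and storage 2 passed 2-fold, again higher on array B, against 7.31% of all measured genes. Soat1, which esterifies cholesterol for storage, gave 97.4 ± 11.8 signal units on array A and 203 ± 21.0 on array B (−1.54 ± 0.23). Scarb1, a lipoprotein receptor that takes up cholesteryl esters, differed by −1.38 ± 0.21. The median of this list was −0.16. Of 8 genes of SREBP processing and sterol-dependent degradation 7 were higher on array A, against 48.6% of all measured genes. The median of the 8 was 0.16. Erlin1, a protein of endoplasmic reticulum membranes that takes part in degradation there, was the 1 past 2-fold, with 6968 ± 697 on array A and 2414 ± 241 on array B (1.05 ± 0.20). Of 3 other LXR target genes measured none passed 2-fold, and their median was −0.52.

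**Figure D5:**
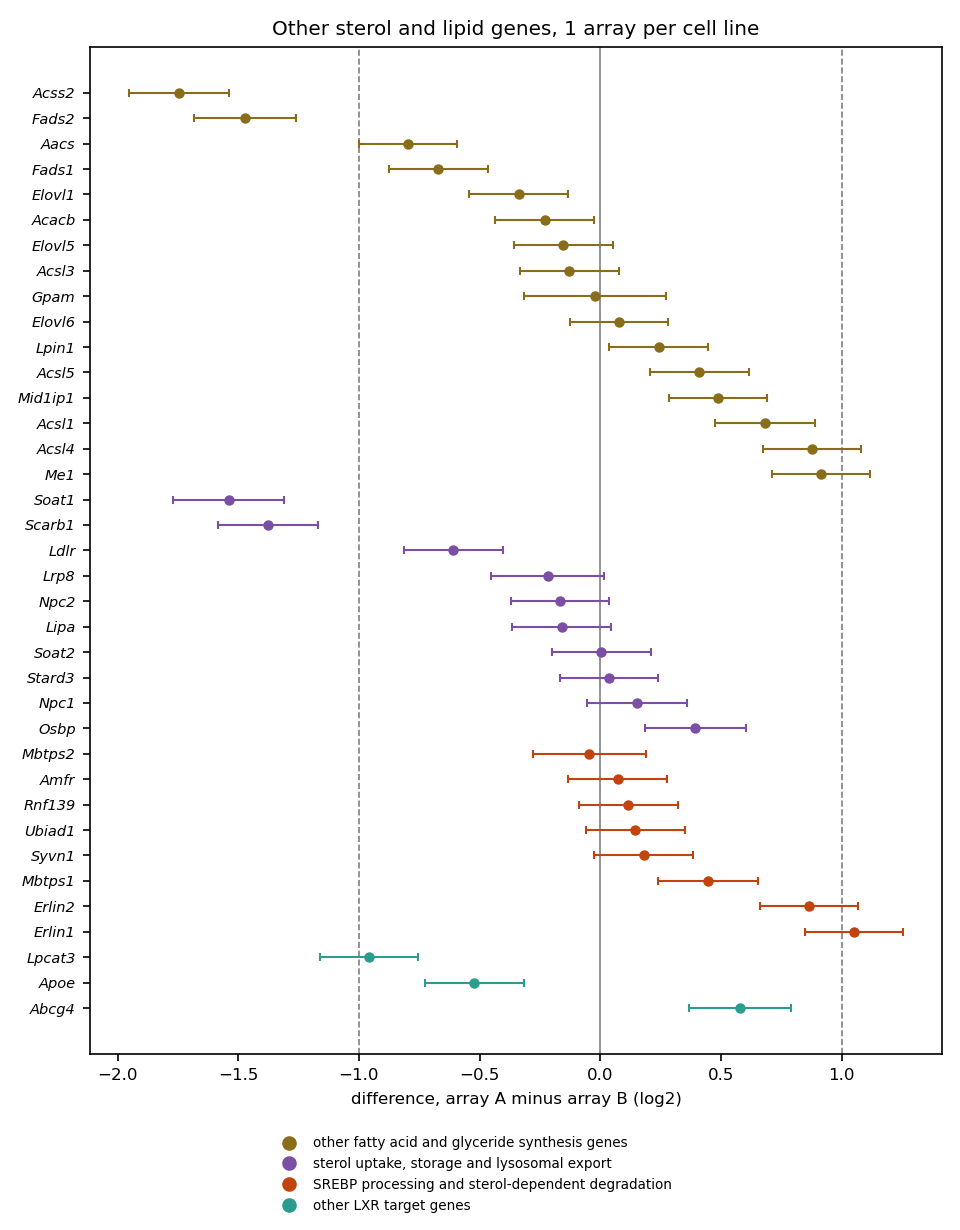
Differences of 37 measured genes from 4 other sterol and lipid lists, array A minus array B (log2), with bars for the scanner error and dashed lines at 2-fold. Acss2, Soat1, Fads2 and Scarb1 lie beyond 2-fold on the array B side and Erlin1 on the array A side.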

How the data were processed

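The authors deposited for each array a scanner file with spot intensity from Agilent Feature Extraction 9.5.1.1 (submitters' processing notes), and a table of log2 values scaled to the 75th percentile of each array. Each column of the deposited log2 table matched the scanner output given for the other cell line. From the intensity of non-control spots, signals below 1 were set to 1, scaled by the array's 75th percentile and put on the log2 scale. A gene's value is the mean of those of its probes that both arrays read well above background. As each cell line has 1 array, no test was made, and 2-fold is a size. Precision is limited by the number of arrays.

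The 33 members, the other lists and the named genes were chosen with earlier results of these data known. Every member is named, with up to 4 genes of each other list among those at least 2-fold apart, except some results that are not reported here. Members' names are those of the array design. Probe positions are mm9 as in the scanner output. No annotation of that build was used, so exons and UTRs were not looked up. Promoters are from RefSeq (GRCm38.p6). Alternatives changed the scaling, background, floor, filter, outlier spots, probe summary, probe naming, value source and threshold. The calculations were tested on simulated data, with Python 3.11.15, numpy 2.4.6, pandas 2.3.3, R 4.3.3 and limma 3.58.1.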

Additional observations from a re-analysis of the deposited data

How the results depend on the processing

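No paired analysis was possible because there was 1 array per cell line, and none could be left out. Scaled to the median, 1 of 32 members (Insig1) passed 2-fold towards array B, against 587 of all 14832 measured genes. The members' median was −0.084. In the same setting 5 of 43 other pathway genes passed 2-fold towards array A, against 1314 of all 14832 measured genes. All measured genes moved with this scaling, and 69.1% of those past 2-fold were then higher on array A, against 34.5% before. Scaled to the 75th percentile of measured probes alone, the members' median was −0.46. With that scaling, with quantile normalisation and with cyclic loess, 0 other pathway genes passed 2-fold towards array A. Of all 14832 measured genes 454, 657 and 592 did so in these settings, in that order. At 1.5-fold with the reported 75th percentile scaling there were 14 members higher on array B. Of other pathway genes 7 passed it towards array A and 9 towards array B. Of all measured genes 12.5% passed 1.5-fold towards array A and 17.6% towards array B. At 3-fold there was 1 member higher on array B, with 0 other pathway genes towards array A and 1 towards array B. The share of all measured genes past 3-fold is not given. The members' median minus that of all genes ran between −0.44 (quantile) and −0.20 (no filter on dim probes). Mvk, Dhcr7 and Abca1 had −0.91, −0.87 and −0.98 with scaling to the median. With a signal of at least 100 required on both arrays, Insig1 and Nr1h3 were not measured. Leaving out spots with outlier marks removed Cyp51. Pmvk, Sqle, Nsdhl, Abcg1, Fasn and Scd2 changed sign with scaling to the median, as Hsd17b7 did there and with the brightest probe. Acaca was higher on array A in 4 of 15 settings and Scap higher on array B in 3. The cyclic loess and signal minimum were chosen after seeing the data. Dim members are limited by background, and spot error does not cover cultures.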

Other observations

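Among enzymes that take mevalonate products away from sterols, those looked at read higher on array A. Pdss1, of the coenzyme Q side chain, differed by 0.87 ± 0.20, and Dhdds, of dolichol synthesis, by 0.61 ± 0.20. Ggps1, of geranylgeranyl diphosphate, differed by 0.33 ± 0.20, within 2 errors. Erlin2, the partner of Erlin1, differed by 0.86 ± 0.20. Me1, which supplies NADPH for fatty acid synthesis, differed by 0.91 ± 0.20, and Acsl4, an acyl-CoA synthetase, by 0.88 ± 0.20, both higher on array A. Lpcat3, a phospholipid remodelling enzyme, differed by −0.96 ± 0.20 and Aacs, which activates acetoacetate, by −0.80 ± 0.20, both higher on array B. These genes were named after their values were seen, and their differences have no test.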
